A study of Homo sapiens with 6 samples.

Results

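The genes described here are 57 zinc finger genes at the end of the long arm of chromosome 19, from ZNF579 in band 19q13.42 to ZNF446 in 19q13.43. They were chosen by name and position, though earlier results of these data were known at that time. A member was read where a probe set of the array named that gene and no other, which held for 54 of the 57, each with 1 probe set, among 21062 tested probe sets of the series. ZNF547 and ZNF497 lie only on probe sets that list another gene too, and ZNF132 was not analysed here.

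Lines of HEK293, an established human embryonic kidney line, were compared on gene expression arrays, with 3 arrays each. The line labelled HEK-BAHD1 carries a single integrated copy of the cDNA of BAHD1, a chromatin repressor, behind the cytomegalovirus promoter. In the line labelled HEK293-CT, called HEK-CT here, that site holds a β-galactosidase sequence out of frame by the labels, and the empty vector by the paper's methods. Both lines are stable pools of transfectants kept under hygromycin B, and the 3 cultures of a line share 1 pool. The spread behind each p-value is therefore that between flasks of the same pool, not between independent lines. The paper's methods place the RNA of a HEK-BAHD1 replicate 2 at a later passage than that of replicate 1 and of the control line. They give no passage for a replicate 3 and do not tie these numbers to the arrays. The part of passage in the results was not tested.

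The probe set of BAHD1 serves as a check of the labels. It gave a log2 signal of 10.06, 9.81 and 9.93 on the arrays labelled HEK-CT and 6.75, 7.00 and 6.76 on those labelled HEK-BAHD1. It was thus lower where the label says it is overexpressed, which goes against the labels. All directions below are those of the labels as deposited, and they would all turn if the labels were exchanged. The control arrays, or controls, named below are those labelled HEK-CT, whichever line they hold. The HEK293 markers NEFL and VIM had mean log2 signals of 9.73 and 11.34 on the arrays labelled HEK-CT, while LHX1, NEFM and PAX2 lay between 4.49 and 5.73 there. NEFL and NEFM were higher on the arrays labelled HEK-BAHD1, at 10.13 and 5.26, and VIM was lower, at 11.07; the part of these markers in the results was not tested. PTPRC, ALB, CDH5 and MYH7, markers of blood, liver, endothelium and heart, had 6-array means of at most 4.74. Medians of the tested probe sets lay between 6.40 and 6.46 on the 6 arrays. No depth is defined for such values, and the number of arrays limits their precision.

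Zinc finger proteins of this kind bind DNA through tandem fingers, and their genes multiplied by local duplication, so that neighbours on chromosome 19 are often close relatives. Many carry a KRAB domain, which recruits the corepressor TRIM28 and, through it, the histone methyltransferase SETDB1 and HP1 proteins. Such complexes are best known for silencing transposable elements. ZNF gene clusters are themselves packed in repressive histone methylation, which the member ZNF274 helps to place. Which members carry a KRAB domain was not analysed here.

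The promoters of several members have a sequence element in common. They are shown for the 4 members with the largest called differences that have an entry, and for ZNF787, the proximal member with the highest signal, as a member without a call. Each line gives the 250 bases before the RefSeq start site in GRCh38.p14, 5′ to 3′ on the strand of the gene. Capitals mark the gapped element ACTACANNNCCCAG, in which N is any base; it was chosen after these sequences had been read.
ZNF470 (chr19:56567218-56567467, plus strand): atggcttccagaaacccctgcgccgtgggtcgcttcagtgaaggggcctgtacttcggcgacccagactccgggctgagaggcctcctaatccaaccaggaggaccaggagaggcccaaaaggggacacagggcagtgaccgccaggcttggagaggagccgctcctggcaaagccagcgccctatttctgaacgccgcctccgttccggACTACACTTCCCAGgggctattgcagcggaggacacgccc
ZNF776 (chr19:57746565-57746814, plus strand): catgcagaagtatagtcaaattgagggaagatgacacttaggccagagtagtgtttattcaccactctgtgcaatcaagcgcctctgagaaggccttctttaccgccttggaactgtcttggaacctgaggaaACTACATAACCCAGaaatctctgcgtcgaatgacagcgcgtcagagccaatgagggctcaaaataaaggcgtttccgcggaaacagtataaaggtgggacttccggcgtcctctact
ZNF814 (chr19:57889038-57889287, minus strand): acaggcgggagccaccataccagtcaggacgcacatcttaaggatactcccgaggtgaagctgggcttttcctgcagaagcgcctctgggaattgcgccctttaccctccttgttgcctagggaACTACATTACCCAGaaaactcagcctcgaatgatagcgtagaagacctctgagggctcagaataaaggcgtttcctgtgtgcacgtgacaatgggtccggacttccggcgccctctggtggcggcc
ZNF583 (chr19:56403764-56404013, plus strand): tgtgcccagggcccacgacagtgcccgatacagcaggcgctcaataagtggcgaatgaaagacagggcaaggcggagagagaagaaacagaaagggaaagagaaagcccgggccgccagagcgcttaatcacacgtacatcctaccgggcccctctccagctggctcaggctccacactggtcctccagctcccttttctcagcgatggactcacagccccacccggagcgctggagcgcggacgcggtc
ZNF787 (chr19:56121296-56121545, minus strand): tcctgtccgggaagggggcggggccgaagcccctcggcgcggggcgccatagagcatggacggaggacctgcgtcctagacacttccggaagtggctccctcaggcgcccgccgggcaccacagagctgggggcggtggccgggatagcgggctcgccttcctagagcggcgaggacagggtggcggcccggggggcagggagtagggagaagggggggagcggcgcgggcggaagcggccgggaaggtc
ZNF776 and ZNF814 lie in the same run of the cluster, and both hold the element in the middle of the window. In ZNF470, from another run of the cluster, it lies close to the start site. The windows of ZNF583 and ZNF787 do not hold these letters.

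Of the 54 measured members, 16 were lower on the arrays labelled HEK-BAHD1, none was higher and 38 were not called. A call joined a limma adjusted p under 0.05 over all tested probe sets and a difference of group medians above 0.2 on the log2 scale. Over all tested probe sets, 6.39% were called lower and 6.79% higher. The members' share called lower was 29.6%. In RNA from whole cultures, fewer cells that express a gene and less RNA per cell cannot be told apart. With all arrays and no block, no member was called higher by limma, nor by the LPE test that the paper's methods name. ZNF671 was called higher by limma with the replicate number as a block and without HEK-CT replicate 3, as given below. At an unadjusted p under 0.05 by limma, 1 member was higher and 25 were lower. Of all 21062 tested probe sets, 3045 were higher and 3118 lower at that threshold. The median log2 fold change over the members was -0.16, against 0.003 over all tested probe sets. The called members lay between -0.54 and -0.23, which corresponds to a linear signal of 0.688 to 0.853 times that of the arrays labelled HEK-CT. Among the 38 not called, 28 had a mean difference below 0 and 10 above 0. Groups of arrays did not overlap, with the lower values labelled HEK-BAHD1, for 44.4% of the members and for 16.9% of all tested probe sets. In the other direction they did not overlap for 1 member, against 16.7% of all tested probe sets. The standard error of a member's difference ranged from 0.049 to 0.14, with a median of 0.070.

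**Figure D1:**
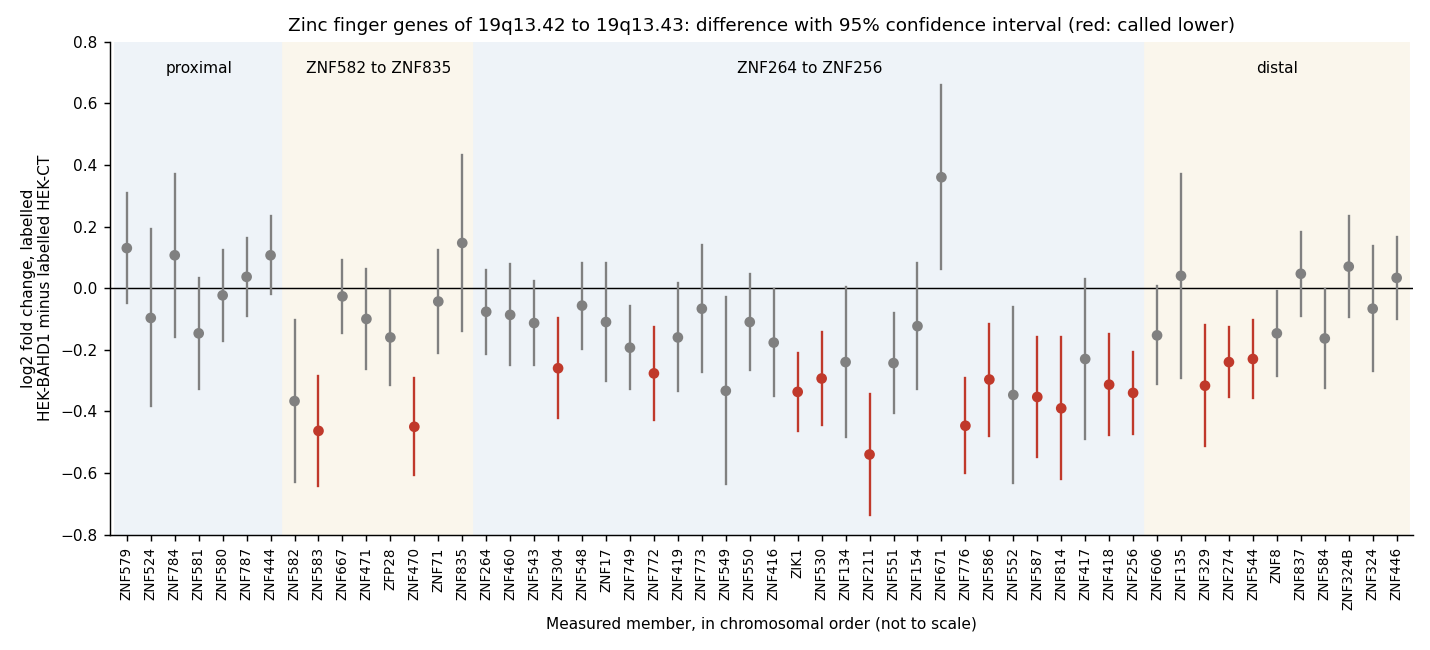
Log2 fold change of the 54 measured members (vertical axis; negative where the signal was lower under the label HEK-BAHD1; points with 95% confidence intervals from limma) in chromosomal order (horizontal axis, not to scale). The 16 red points were called lower; they begin at ZNF583 and end at ZNF544, and no member of the proximal run is among them.

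The count of 16 depended on the arrays. It was 7, 8 and 8 without HEK-CT replicate 1, 2 and 3, and 6, 13 and 7 without HEK-BAHD1 replicate 1, 2 and 3. The share of all tested probe sets called lower fell as well, to between 2.76% and 4.45% in these fits. ZNF211, ZNF583, ZNF470, ZNF776, ZNF256 and ZIK1 were called lower in all 6 of these fits, with an adjusted p of at most 0.039 from limma. ZNF544 was called in none of them.

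ZNF211, in the middle of the cluster, had the largest difference of the members. Its log2 signal was 7.30, 7.24 and 7.34 on the arrays labelled HEK-CT and 6.58, 6.79 and 6.89 on those labelled HEK-BAHD1. The groups lay apart by more than the spread within either of them. The log2 fold change was -0.54 with a standard error of 0.085 (limma, adjusted p = 0.00801), a linear ratio of 0.688.
ZNF583 followed, with a log2 signal of 6.64, 6.67 and 6.44 under the label HEK-CT and 6.06, 6.10 and 6.20 under HEK-BAHD1. Its log2 fold change was -0.46 (adjusted p = 0.00987 from limma). HEK-CT replicate 3 was the nearest control array to the other group, and the groups did not overlap. ZNF582, its neighbour, whose promoter is often methylated in tumours, ran the same way at -0.37 but was not called (adjusted p = 0.0734 from limma). It was called lower by the LPE test (adjusted p = 0.00442), and by limma with an intensity trend (0.0298), without the dimmest 30% of probe sets (0.0459) and with the replicate number as a block (0.0347). The other fits described below did not call it, among them every fit that leaves out 1 array.
ZNF470 had values of 7.13, 7.11 and 7.15 on the control arrays, the closest control values among the 8 called members with the largest differences, against 6.70, 6.78 and 6.56. Its log2 fold change was -0.45 (adjusted p = 0.00688 from limma).
ZNF776 combined a high signal with a clear difference. It read 9.28, 9.31 and 9.33 on the arrays labelled HEK-CT and 8.90, 8.94 and 8.74 on those labelled HEK-BAHD1, a log2 fold change of -0.45 (adjusted p = 0.00656 from limma). That was the lowest adjusted p among the members.
ZIK1, which encodes a binding partner of the RNA-binding protein hnRNP K, was at 9.05, 9.00 and 8.95 against 8.68, 8.69 and 8.62. Both groups were tight, and the log2 fold change was -0.34 (adjusted p = 0.00923 from limma). ZNF256, a repressor near the end of the same run, was at 8.36, 8.36 and 8.26 against 7.95, 8.04 and 7.97. Its log2 fold change was also -0.34 (adjusted p = 0.0104 from limma).
ZNF814 and ZNF587 have near-identical copies beside them, so their signals may be shared with those copies and are uncertain. ZNF814 read 7.65, 7.83 and 7.43 on the control arrays and 7.19, 7.29 and 7.26 on the others (log2 fold change -0.39, adjusted p = 0.0403 from limma). The control arrays of ZNF814 spread more widely than those of the other called members. ZNF587 read 7.83, 7.70 and 7.74 against 7.41, 7.55 and 7.25 (log2 fold change -0.35, adjusted p = 0.0327 from limma). Neither call held throughout. Leaving out any array but HEK-CT replicate 3 ended that of ZNF814, with an adjusted p of at most 0.110. For ZNF587 any array but HEK-BAHD1 replicate 2 did so, with an adjusted p of at most 0.0962.

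**Figure D2:**
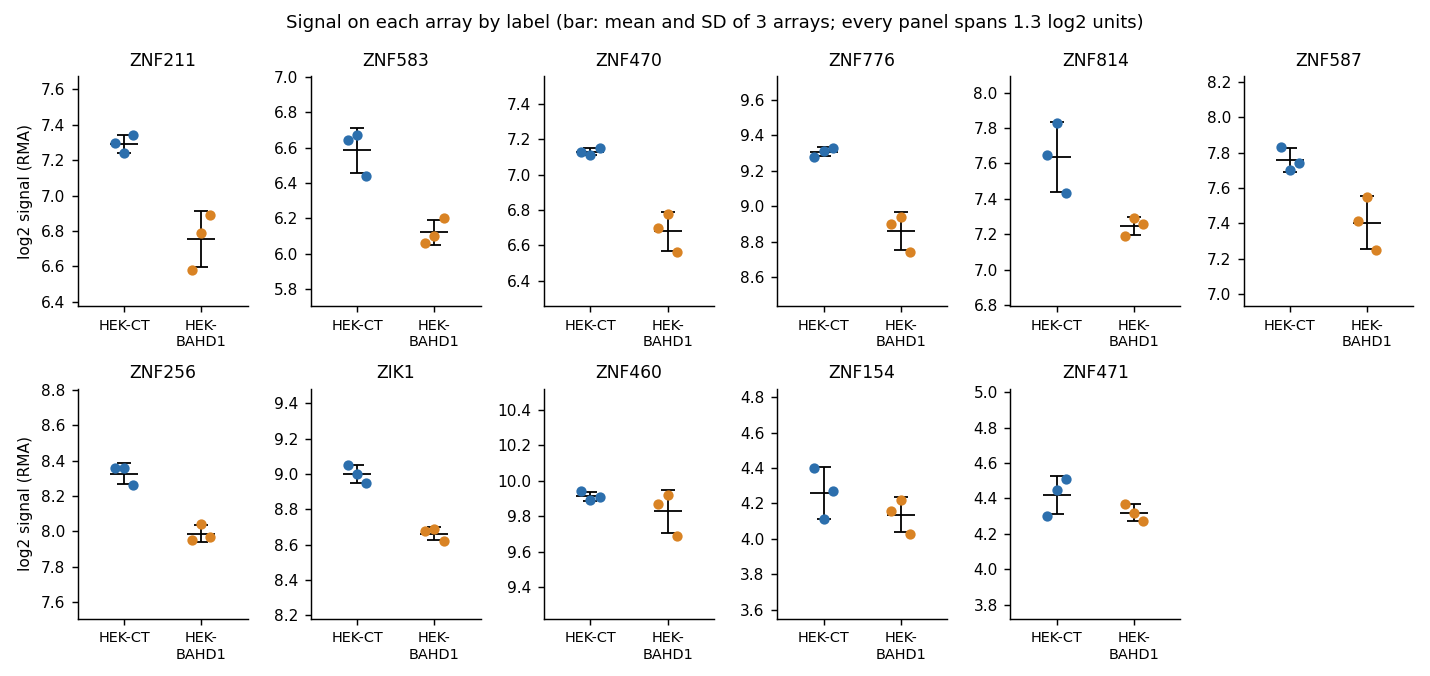
Log2 signal (vertical axis, RMA) on the 3 arrays of each label for the 8 called members with the largest differences and for the members with the highest (ZNF776, ZNF460) and lowest (ZNF154, ZNF471) mean signal; points are arrays, and bars are the mean and SD of 3 arrays. For the 8 called members, from ZNF211 to ZIK1, the groups do not overlap; for ZNF460, ZNF154 and ZNF471 they do.

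Called and uncalled members were found at both high and low signal. ZNF460 had the highest mean of the members, at 9.87, and was at 9.94, 9.89 and 9.91 against 9.87, 9.92 and 9.69. These groups overlapped (log2 fold change -0.087). At the other end, ZNF154 was at 4.40, 4.11 and 4.27 against 4.16, 4.22 and 4.03, and ZNF471 at 4.30, 4.45 and 4.51 against 4.37, 4.32 and 4.27. Their signals were the lowest of the members. Both genes are known for promoter methylation in tumours, which was not examined here. Of the 8 members with a mean signal above 8, 4 were called lower, and of the 7 with a mean up to 6, 1 was, ZNF418.

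Along the chromosome, the members fall into 4 runs of neighbours, which are described in order. The difference between runs was not tested. The proximal run holds ZNF579, ZNF524, ZNF784, ZNF581, ZNF580, ZNF787 and ZNF444. None of these 7 genes was called by limma, nor by the LPE test, and none had an unadjusted p under 0.05. Their median log2 fold change was 0.037, from -0.15 in ZNF581 to 0.13 in ZNF579. ZNF444, whose protein carries a SCAN domain for pairing with other zinc finger proteins, was at 6.97, 6.91 and 6.99 against 7.03, 7.05 and 7.11. It was the only member whose arrays labelled HEK-BAHD1 all lay above the control arrays, by a log2 fold change of 0.11 that was not called (adjusted p = 0.241 from limma).
Next comes the run of 8 genes from ZNF582 to ZNF835, of which ZNF583 and ZNF470 were lower, and 6 were not called. The uncalled members ranged from ZNF582, given above, to ZNF835 at 0.15. ZNF667, another gene known for promoter methylation in tumours, was nearly level, at 6.34, 6.36 and 6.32 against 6.28, 6.35 and 6.31. Its antisense transcript ZNF667-AS1, which starts beside it and is no member, was lower, at 8.33, 8.16 and 8.29 against 7.90, 7.94 and 7.61 (log2 fold change -0.44, adjusted p = 0.0249 from limma). The difference between the 2 transcripts was not tested.
The long run from ZNF264 to ZNF256 holds 28 of the 54 measured members, 11 of the 16 called lower among them, and had a median log2 fold change of -0.24. Only ZNF671 had a mean difference above 0 in this run. From ZNF264 to ZNF154, 19 measured members in a row had a mean difference below 0. Beside ZNF211, ZNF776, ZIK1, ZNF256, ZNF814 and ZNF587, the called members were ZNF418 at -0.31, ZNF586 at -0.30, ZNF530 at -0.29, ZNF772 at -0.28 and ZNF304 at -0.26. Of the 6 fits that leave out 1 array, ZNF418, ZNF586 and ZNF530 were called in 2 each, and ZNF772 and ZNF304 in 1 each. ZNF418 was also not called by the LPE test (adjusted p = 0.192). ZNF304 is known to recruit a TRIM28 complex to the INK4-ARF tumour suppressor locus in colorectal cancer cells. ZNF304 was at 7.99, 7.92 and 7.89 against 7.60, 7.80 and 7.62, and its adjusted p of 0.0481 from limma lay close to the threshold. Uncalled members of similar size were ZNF552 at -0.35, ZNF549 at -0.33, ZNF551 at -0.24 and ZNF134 at -0.24, with adjusted p from 0.058 to 0.176 (limma). Their arrays were more scattered, with the exception of ZNF551, which missed the threshold by little.
ZNF671 stood apart from its neighbours ZNF154 and ZNF776. Its log2 signal was 4.18, 4.18 and 4.57 on the arrays labelled HEK-CT and 4.55, 4.59 and 4.87 on those labelled HEK-BAHD1. HEK-CT replicate 3 lay inside the range of the other group. The log2 fold change was 0.36 (95% confidence interval 0.061 to 0.66, adjusted p = 0.110 from limma), and without HEK-CT replicate 3 it was 0.49 and called higher (adjusted p = 0.0423). All its signals were low.
In the distal run of 11 measured genes, ZNF329, ZNF274 and ZNF544 were lower, at -0.32, -0.24 and -0.23, and 8 were not called. ZNF274, which recruits SETDB1 to the ends of other ZNF genes, had the smallest standard error of the members (0.049). It was at 8.15, 8.15 and 8.13 against 7.90, 7.92 and 7.89, so that the groups were far apart for their spread (adjusted p = 0.0198 from limma). Each of these 3 calls was lost when certain arrays were left out: that of ZNF274 without any array but HEK-BAHD1 replicate 2 (adjusted p at most 0.0664), and that of ZNF329 likewise (adjusted p at most 0.134). The genes closest to the end of the chromosome, ZNF837, ZNF584, ZNF324B, ZNF324 and ZNF446, were not called and ranged from -0.16 to 0.07.

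**Figure D3:**
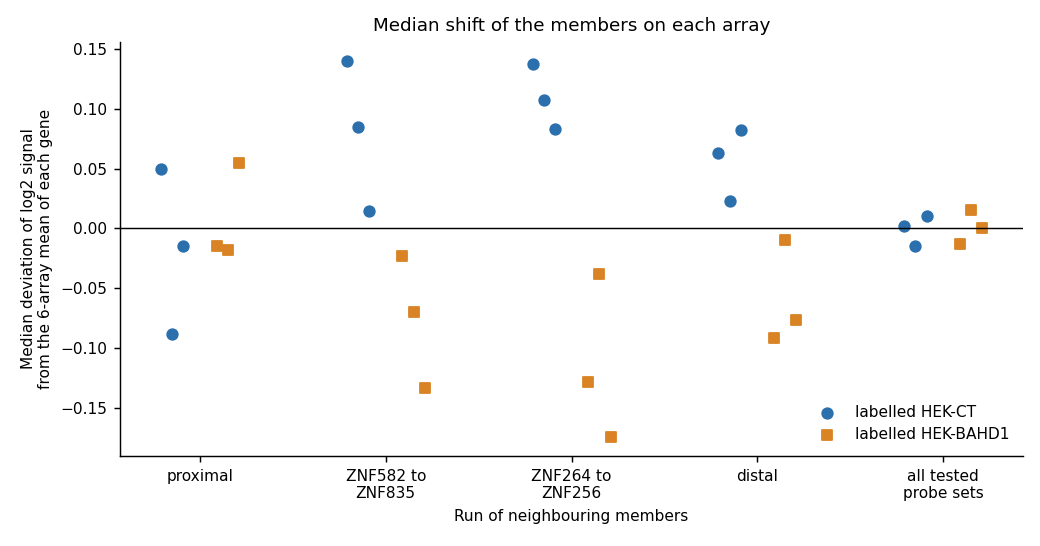
Median over the members of each run of the deviation of log2 signal from the gene's own 6-array mean (vertical axis), for each array; circles are labelled HEK-CT and squares labelled HEK-BAHD1, with all tested probe sets at the right. In the run from ZNF264 to ZNF256 the arrays labelled HEK-CT lie at 0.083 to 0.14 and the others at -0.17 to -0.038, whereas in the proximal run the labels overlap.

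The shift was shared by the arrays of each label. On the arrays labelled HEK-CT, 10, 12 and 15 of the 54 members lay below their own 6-array mean, and on those labelled HEK-BAHD1, 36, 37 and 43 did. HEK-BAHD1 replicate 3 lay lowest, with a median deviation of -0.12 over the members, and HEK-BAHD1 replicate 2 was nearest to the controls, at -0.033. Over all tested probe sets, the same medians stayed between -0.015 and 0.015.

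Other zinc finger genes were lower too. Of 185 other ZNF genes of chromosome 19, 93 were lower (50.3%) and 3 higher, with a median log2 fold change of -0.29. Of 256 ZNF genes of other chromosomes, 46 were lower (18.0%) and 7 higher, with a median of -0.09. Both groups were taken by symbols that begin with ZNF and a number, so antisense transcripts and pseudogenes can be among them. The members, with 29.6% lower, stood between these groups. The difference between these shares was not tested.
Other genes that lie between the members serve as positional neighbours. Of 30 such genes with a probe set of their own, 4 were lower (13.3%) and none was higher, with a median log2 fold change of -0.057. Over all tested probe sets, 6.39% were called lower and 6.79% higher. At an unadjusted p under 0.05 by limma, 8 were lower and 2 higher, against 3118 and 3045 of all 21062 tested probe sets. Among the 30 are 9 protein-coding ZNF, ZSCAN and ZIM genes that are no members, and all 4 calls lay in the other 21, which had a median of -0.07. RFPL4A, which has near-identical copies and is uncertain for that reason, was at -1.94 and VN1R1, a pheromone receptor homologue, at -0.49, with the transcribed pseudogene ZNF542P at -0.28 and ZNF667-AS1 given above. ZNF542P and ZNF667-AS1 also count among the 185 ZNF genes above, as do the uncalled ZNF606-AS1, ZNF805 and ZNF865. U2AF2, a splicing factor, and EPN1, an endocytic adaptor, had values of 0.017 and 0.077 and were not called. Many of these neighbours had low signal, and of the 12 with a mean above 6, 3 were lower, against 15 of 47 members and 9.75% of all 11685 tested probe sets above that level. Of 14 other zinc finger genes of the bands, such as the ZSCAN genes and MZF1, 11 were measured, 3 of which also count among the 185 ZNF genes above, and none was called by limma; 2 were lower and none higher at an unadjusted p under 0.05.

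**Figure D4:**
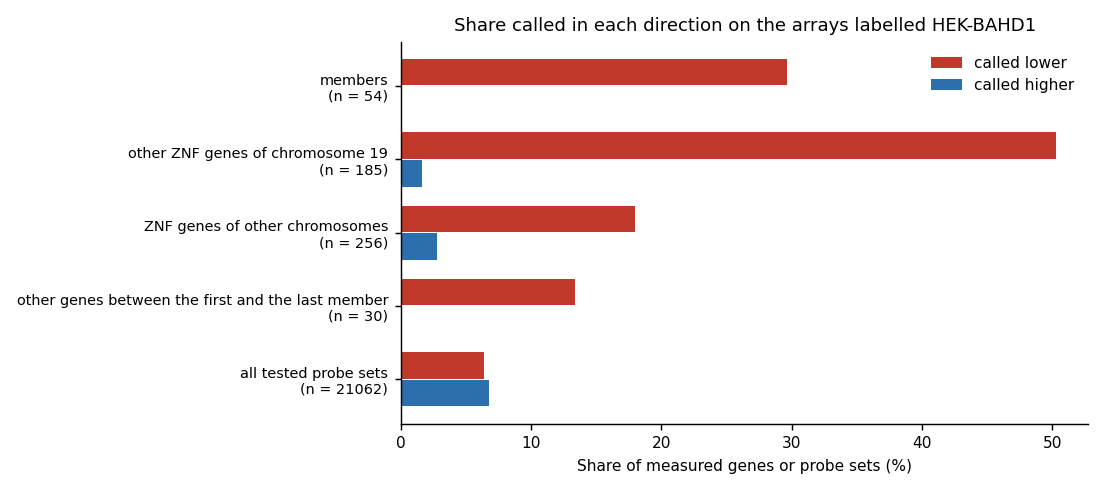
Share of measured genes called lower (red) and higher (blue) on the arrays labelled HEK-BAHD1 (horizontal axis, percent), for the members, other sets and all tested probe sets; a missing blue bar stands for 0 genes. The members' share called lower is 29.6%, against 50.3% for the other ZNF genes of chromosome 19 and 6.39% for all tested probe sets.

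The machinery that KRAB zinc finger proteins act through was measured on the same arrays. Of 24 genes, 3 were lower (12.5%), none was higher and 21 were not called, with a median log2 fold change of -0.063. Over all tested probe sets, 6.39% were called lower and 6.79% higher. All 24 genes had a mean signal above 6, and of all tested probe sets above that level 9.75% were called lower and 9.31% higher. At an unadjusted p under 0.05 by limma, 7 were lower and 4 higher. For all 21062 tested probe sets these counts were 3118 and 3045. ATF7IP, the partner that stabilizes SETDB1, was at 9.93, 9.88 and 9.90 against 9.53, 9.63 and 9.40 (log2 fold change -0.38, adjusted p = 0.0128 from limma). The maintenance DNA methyltransferase DNMT1 was at -0.27 and MPHOSPH8, a subunit of the HUSH silencing complex, at -0.25. TRIM28, whose gene lies beyond the last member at the end of the chromosome, was at 11.34, 11.29 and 11.33 against 11.32, 11.34 and 11.38, with a log2 fold change of 0.027 (95% confidence interval -0.092 to 0.15). SETDB1 was at -0.027. The remodeller CHD3 was at 0.22 and the DNA methyltransferase DNMT3A at 0.20, with an adjusted p of 0.0401 and 0.0392 from limma, and neither was called because the difference of medians was not above 0.2.

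Promoter sequences were at hand for 48 of the measured members, and their features had no part in choosing them. The gapped element was found, on either strand, in 15 of these 48 windows (31.3%), against 15.9% of 157 other ZNF genes of chromosome 19 and 1.25% of all 27305 promoters. The members that hold it are ZNF444, ZNF470, ZNF835, ZNF749, ZNF772, ZNF773, ZNF549, ZIK1, ZNF530, ZNF776, ZNF586, ZNF587, ZNF814, ZNF418 and ZNF606. Of these, 9 were called lower, with a median log2 fold change of -0.30 over the 15, and of the 33 without it 6 were, with a median of -0.11. The element was read from the promoters printed above, of which ZNF470, ZNF776 and ZNF814 hold it. Part of the 31.3% was therefore set in advance. Those promoters were chosen by their calls, so part of this split was set by that choice too. Without those 5 promoters, 6 of 12 members with the element and 5 of 31 without it were called lower. Among the other ZNF genes of chromosome 19, 13 of 25 with the element and 68 of 132 without it were called lower, which are nearly equal shares. Among genes that are neither members nor ZNF genes, 23 of 223 with it (10.3%) and 807 of 13582 without it (5.94%) were. Their median signals differed too, at 8.315 with it and 6.73 without it. Of all tested probe sets with a mean signal above 6, 9.75% were called lower. The part of signal in these shares was not tested. The difference between shares was not tested in any of these groups. Members in tandem share sequence through duplication, so these promoters are not independent of each other.
Other motifs were also searched on both strands. The letters CCGGAA, the core bound by ETS factors, were in 27 of the 48 windows (56.3%), against 33.8% of the 157 other ZNF genes of chromosome 19 and 14.8% of all promoters, and 8 of the 15 called members and 19 of the 33 others held them. A GC box (GGGCGG) was in 28 windows (58.3%, against 67.5% of the other ZNF genes of chromosome 19 and 42.3% of all promoters), and in 5 of the 15 called members and 23 of the 33 others. The CCAAT box was in 27 (56.3%, against 49.0% and 33.0%). GCGCATGC, bound by NRF1, was in none, and AAGATGGC, bound by YY1, was in 1 window, against 2.81% and 1.37% of all promoters.
Base composition was compared in the same windows. The median GC content of the windows was 58.4% in the 15 called members and 62.4% in the 33 others. Below 60% GC, 9 of 21 members were called lower, between 60% and 70% 6 of 21 were, and at 70% or more none of 6 was, nor was any at an unadjusted p under 0.05. Over all genes tested with a promoter, the shares called lower in the same ranges were 7.14%, 8.04% and 4.73%, and the shares called higher 4.18%, 6.42% and 12.8%. Across the 48 members, log2 fold change and GC content had a Pearson correlation of 0.40 and a Spearman correlation of 0.44, and across 14208 genes of 0.13 and 0.13. The called members ZNF772, ZNF530, ZNF776, ZNF586, ZNF587, ZNF814 and ZNF418 lie below 60% GC and also hold the gapped element. Base composition and the element are therefore not separate observations. Genes are not independent replicates, and the part of base composition in the result was not tested.

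**Figure D5:**
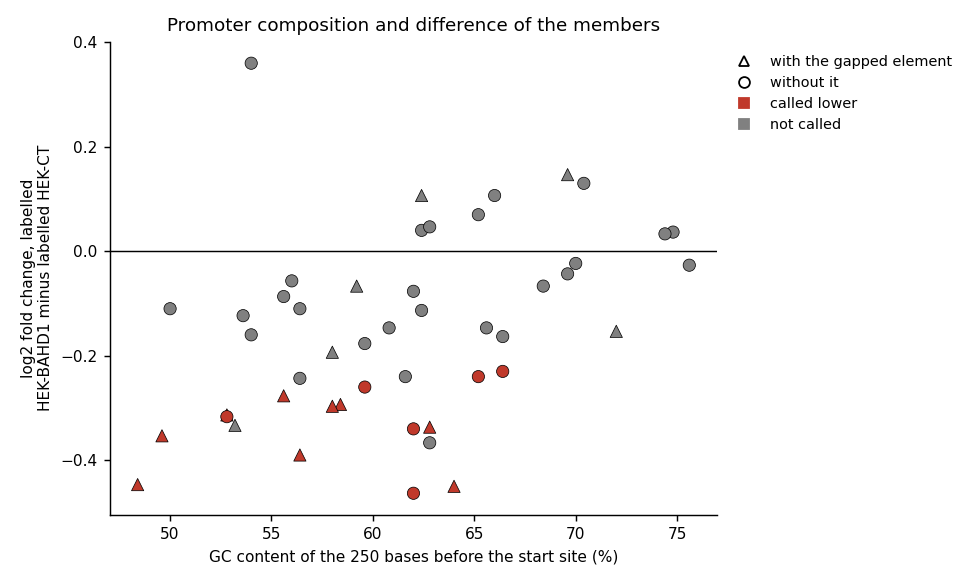
Log2 fold change (vertical axis; negative where the signal was lower under the label HEK-BAHD1) against the GC content of the 250 bases before the start site (horizontal axis, percent) for 48 members; triangles hold the gapped element and red marks members called lower. Triangles make up 9 of the 15 red points, and no member at 70% GC or more is red.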

How the data were processed

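Total RNA of 3 cultures per line was hybridised to Affymetrix HuGene 1.0 ST arrays, 1 array a culture. Values were deposited on the log2 scale after RMA by the authors, a method that subtracts background, puts arrays on 1 distribution and joins a gene's probes; no RMA version is given in the sources used here. The values have 2 decimals.

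Probe sets were named through the platform annotation and RefSeq (GRCh38.p14), which gave the gene order and promoters. For genes with several starts the first listed was used. Testing covered the 21062 probe sets with a named gene, in limma 3.58.1 under R 4.3.3, with the Benjamini-Hochberg adjustment over all of them and no block. The members, runs and lists were chosen with earlier results of these data known. Values on each array were given for the 8 called members of the largest size, those called higher, and the 2 with the highest and the 2 with the lowest signal; other members, and up to 6 called genes of other lists, by their difference, with some arrays added after their values were seen. The LPE test was rewritten with 100 intensity bins and a smoothing spline (10 degrees of freedom). The methods were tested on simulated arrays. No protein sequences were used here.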

Additional observations from a re-analysis of the deposited data

How the results depend on the processing

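With the 7807 unnamed probe sets also tested, 9 members were called lower (3.58% of all probe sets), 6 of them in the run from ZNF264 to ZNF256 and 1 in the distal run. With the replicate number as a block (replicate block), 9 were lower (3.94% of all tested), 5 and 1 in those runs, and 1, ZNF671, was higher; 7 of the 9 were among the 16, and ZNF582 and ZNF552 were added. The labels share the number alone: deviations of same-numbered arrays correlated at -0.077, 0.074 and -0.038, and not every array correlated best with its own number. With 1 array left out, 6 to 13 members were lower and 0 to 1 higher, with 4 to 9 lower in the run from ZNF264 to ZNF256, 0 to 2 in the distal run, and a median log2 fold change of -0.18 to -0.13. Centred on array medians, the members' median was -0.19, while that of all tested probe sets was -0.033, and 17 members were lower (9.08% of all tested). The LPE test called 18 lower (7.41% of all tested), 14 of them also called by limma. Robust variance gave 15 (6.17%), quantile normalization again 16 (6.29%), and an intensity trend (8.14%) or leaving out the dimmest 30% (10.7%) 18 each. No member called lower changed direction in any of these settings. The cause of the lost calls was not tested. The number of arrays limits all counts.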

Other observations

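Probe sets that list a member together with another gene were left out of the counts above, and a value there cannot be assigned to 1 gene. The probe set listing ZNF587 and ZNF587B was at 8.70, 8.64 and 8.80 on the arrays labelled HEK-CT and 8.40, 8.51 and 8.29 under the label HEK-BAHD1, lower by limma at a log2 fold change of -0.31 (adjusted p = 0.0332). That listing ZFP28 and ZNF229 was at 8.01, 7.96 and 7.95 against 7.75, 7.64 and 7.60 (log2 fold change -0.31, adjusted p = 0.0164 from limma), whereas the probe set of ZFP28 alone was at -0.16 and not called. Those listing ZNF587B and ZNF814, ZNF547 and TRAPPC2B, and ZNF497 with a LOC gene were not called, at -0.20, -0.18 and 0.13.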
